A study of Nicotiana tabacum with 6 samples.

Results

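The proteasome loci of tobacco explants were compared between a higher and a lower concentration of NAA (naphthaleneacetic acid, a synthetic auxin). They were taken as every locus whose best protein match is described with the words proteasome or 26S protease, which gave 135 of the 39825 loci in the expression table, spread over 19 chromosomes. Of these, 22 encoded alpha subunits of the core, 26 beta subunits of the core, 31 ATPases of the regulatory particle and 44 its non-ATPase subunits. A further 2 encoded the activator PA200, 9 encoded assembly factors, inhibitors or associated proteins, and 1 low locus described as a partial putative alpha4 subunit fell in no class by its words.

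The study asked how the auxin concentration of the culture medium affects regeneration and gene editing, and these libraries accompanied its measurements of chromatin accessibility. Messenger RNA was sequenced from explants after 2 weeks of culture on 0.5 mg/L NAA (3 libraries) or on 0.1 mg/L NAA (3 libraries). The explants of the study were pieces of excised cotyledons, and its culture medium carried the cytokinin 6-BA in both groups. The labels name the plant Nicotiana tabacum, the study names Nicotiana benthamiana, and the locus names are those of the N. benthamiana genome Niben261. How the 3 replicates were drawn from the harvested explants is not described, so p-values measure only the spread between these libraries, which may be technical. Whether the explants of these libraries had met Agrobacterium is not described either. Explants are mixtures of cells, and fewer cells of a type cannot be told apart from less RNA per cell.

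The proteasome degrades proteins that carry chains of ubiquitin. Its barrel-shaped core is made of outer rings of alpha subunits, which gate the entrance, and inner rings of beta subunits, 3 of which cut proteins. A regulatory particle caps the core: a ring of ATPases, called RPT subunits, unfolds the substrate, and the non-ATPase RPN subunits bind it and remove its ubiquitin. In plants the pathway is central to auxin signalling, because auxin brings Aux/IAA repressors to an SCF ubiquitin ligase, which marks them for the proteasome.

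Expression was measured as FPKM, the fragments of a transcript scaled for its length and for the fragments of its library. The deposited values summed to 986722 to 1015420 in the 0.5 mg/L libraries and to 1140990 to 1155640 in the 0.1 mg/L libraries. Replicate 3 of the 0.1 mg/L treatment was the shallowest library, at 0.74 of the depth of replicate 1 of that treatment, estimated from the steps of low values, against 0.99 to 1.04 in the other libraries. Read numbers are not given. Loci of green mesophyll summed to 2860 to 3850 FPKM at 0.5 mg/L and to 7632 to 8442 FPKM at 0.1 mg/L, with 39 of 46 tested loci lower and 0 higher. Loci of dividing cells, mostly histones, summed to 6293 to 7785 FPKM at 0.5 mg/L and to 10067 to 11966 FPKM at 0.1 mg/L. Of 67 tested, 46 were lower and 0 higher. These sums and the 46 include 4 loci matched by the word cyclin-B that are UMP1, a proteasome chaperone, by their KEGG term (below). Loci of secondary wall and xylem summed to 90.4 to 140 FPKM at 0.5 mg/L and to 239 to 248 FPKM at 0.1 mg/L. Of 26 tested, 14 were lower and 2 higher. The wound and defence list went the other way, with 1967 to 3191 FPKM at 0.5 mg/L and 1644 to 1743 FPKM at 0.1 mg/L. Of its 16 tested loci 8 were higher and 2 lower. Over all loci 20.2% were lower and 21.7% higher. The part of these shifts in the proteasome results was not tested.

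The mean expression was at least 0.5 FPKM for 127 of the 135 proteasome loci, and these were tested with limma on log2(FPKM + 1), with p-values adjusted over all 32443 loci that passed the same minimum. At 0.5 mg/L NAA 57 proteasome loci were lower (adjusted p under 0.05) and 14 were higher, and 56 did not pass. Over all loci tested 20.2% were lower and 21.7% were higher. The median log2 fold change was -0.19 over the proteasome loci and 0.02 over all loci. A single proteasome locus, one encoding PA200, also passed a |log2FC| of 1, against 5.86% of all loci in either direction and 3.24% upwards. Of the 57 lower loci 35 encoded core subunits. In 67 proteasome loci every 0.5 mg/L library lay under every 0.1 mg/L library and in 16 above, and the groups were apart in this way in 54.7% of all loci. When each library was rescaled to the same total (TPM), which alone moved the median of all loci to 0.19, 27 proteasome loci were lower and 22 higher, against 12.2% and 34.3% of all loci.

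The smallest means inside the minimum belonged to an alpha2 locus, Niben261Chr11g0020017 (0.50 FPKM), and an RPN2 locus, Niben261Chr14g0814013 (1.00 FPKM). The largest outside it belonged to an RPT3 locus, Niben261Chr16g0937005 (0.43 FPKM), and a beta2 locus, Niben261Chr11g1171006 (0.28 FPKM). Each of the 8 untested loci had a sister locus of the same subunit with higher values, except the partial alpha4-like locus, which stood at 0 in 4 of the 6 libraries and has no sister under its own words.

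**Figure D1:**
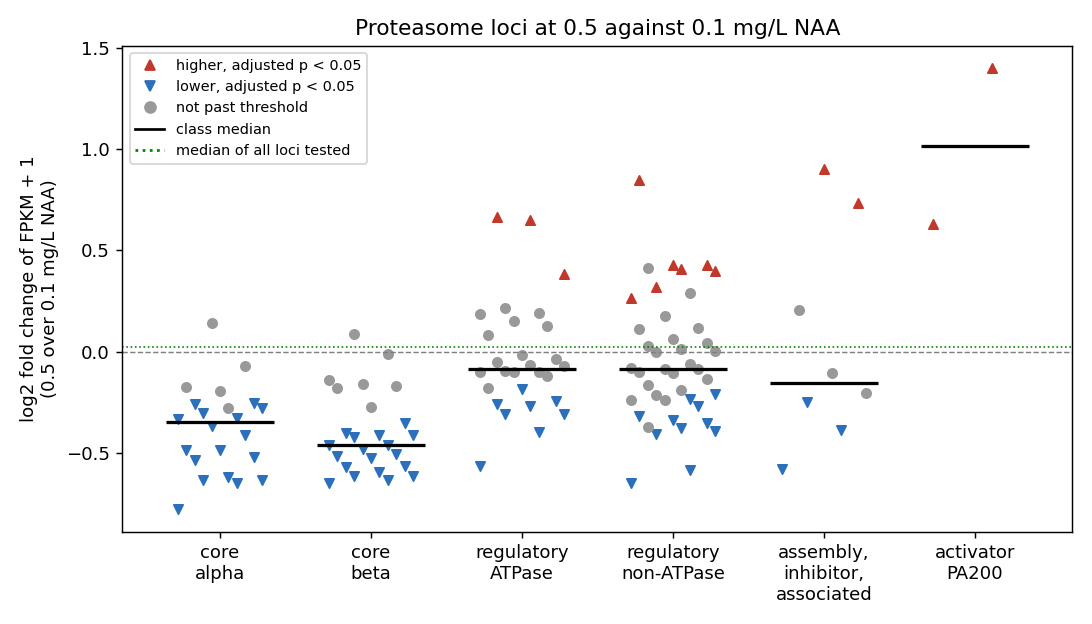
Log2 fold change (0.5 over 0.1 mg/L NAA, of FPKM + 1) of the 127 proteasome loci tested, by class; upward and downward triangles passed an adjusted p of 0.05 in limma, circles did not, black bars are class medians and the dotted line is the median of all loci. No core locus passed as higher, and the medians of the core classes (-0.35 and -0.46) lie under those of the regulatory classes (-0.08 and -0.09), with both PA200 loci above 0.6.

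The core was lower at 0.5 mg/L NAA. Of the 22 alpha loci 17 were lower and 0 higher, and their median log2 fold change was -0.35. Of the 25 beta loci tested 18 were lower and 0 higher, with a median of -0.46. In 19 alpha and 19 beta loci every 0.5 mg/L library lay under every 0.1 mg/L library, which was so for 25.9% of all loci. The fall was clearest in the strongly expressed loci: 34 of the 39 core loci with a mean of at least 10 FPKM were lower, against 1 of the 8 tested under 10 FPKM. The count of lower alpha loci fell to 10 without replicate 1 of the 0.1 mg/L treatment and to 13 without its replicate 2. The alpha medians in these fits, which hold fewer libraries, were -0.36 and -0.38. The alpha count was 9 with libraries rescaled to the same total and 11 after quantile normalization. The alpha median relative to all loci was -0.34 and -0.24 under these scalings, against -0.37 as deposited.

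Because the genome is allotetraploid, most subunits have several loci, and reads of near-identical copies may be split between them in a way the files do not describe. The FPKM of the loci of a subunit under the rule were therefore summed in each library. Such a sum does not depend on the split among copies of equal length, but lengths are not given. With copies of unequal or partial length the split could still move the sums, as could reads shared with copies outside the rule. All 13 core subunits with a matched locus gave lower sums in every 0.5 mg/L library than in any 0.1 mg/L library, which was so for 25.9% of all single loci. The ratios of the means ran from 0.646 (alpha6) to 0.797 (alpha5), with a median of 0.717. With libraries rescaled to the same total, an alternative added after the data were seen, all 13 stayed lower without overlap, with ratios of 0.739 to 0.911. Of the core subunits, alpha5 and alpha6 have further loci under a KEGG term only, and both stayed lower without overlap when these were added, also after the data were seen. Their ratios then were 0.812 and 0.949. For alpha6 the groups were then barely apart, with 438.18 FPKM in the highest 0.5 mg/L library and 438.22 FPKM in the lowest 0.1 mg/L library. The 4 loci added to alpha6 are described by their protein match as another protein, a lipid transfer protein of the SFH8 type. Subunit alpha3 was matched by no locus under the words used and was not analysed here.

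Among the alpha subunits alpha6 had the lowest ratio, with sums of 131, 117 and 123 FPKM at 0.5 mg/L against 195, 193 and 188 FPKM at 0.1 mg/L. The sums of alpha4 were 270, 268 and 263 FPKM at 0.5 mg/L, against 401, 400 and 405 FPKM at 0.1 mg/L. All 3 loci of each of these subunits were lower. Of the subunits under the rule alpha7 had the highest sum, with 444, 443 and 434 FPKM at 0.5 mg/L and 582, 595 and 573 FPKM at 0.1 mg/L.

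The single alpha locus with the largest fall, Niben261Chr04g0277005 on chromosome 4, encoded a partial alpha7. It had 124, 131 and 112 FPKM at 0.5 mg/L and 208, 212 and 212 FPKM at 0.1 mg/L, a log2 fold change of -0.78 (SE 0.07, adjusted p = 0.00046, limma). Its neighbour Niben261Chr04g0277006, also alpha7, had a log2 fold change of -0.18 and did not pass (adjusted p = 0.071, limma), although its groups did not overlap. The next largest fall was in the alpha4 locus Niben261Chr08g0659002, with 84.1, 82.2 and 78.3 FPKM at 0.5 mg/L and 125, 126 and 134 FPKM at 0.1 mg/L (log2 fold change -0.65, SE 0.07, adjusted p = 0.00054, limma). The strongest alpha locus, Niben261Chr04g1796005, encoded alpha1. It had 151, 156 and 150 FPKM at 0.5 mg/L and 217, 210 and 239 FPKM at 0.1 mg/L (log2 fold change -0.54, SE 0.07, adjusted p = 0.0014, limma). The groups of all 3 loci were well apart.

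At the other end stood weak copies. The alpha1 locus Niben261Chr14g0472009 had 1.60, 2.06 and 0.40 FPKM at 0.5 mg/L and 0.82, 1.66 and 1.66 FPKM at 0.1 mg/L, and the alpha2 locus Niben261Chr11g0020017 had 0.74, 0.76 and 0.18 FPKM at 0.5 mg/L and 0.38, 0.96 and 0 FPKM at 0.1 mg/L. Both overlapped between the groups, and the differences of -0.07 and 0.14 on the log2 scale were not detectable at these levels.

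The sums of the beta subunits moved alike, while their single loci did not all do so. The catalytic subunits beta1, beta2 and beta5, which cut after acidic, basic and hydrophobic residues in that order, had summed ratios of 0.756, 0.727 and 0.665. Of their 10 tested loci 5 were lower: 1 of 3 in beta1, 1 of 3 in beta2 and 3 of 4 in beta5. Of the 15 loci of the noncatalytic beta subunits 13 were lower. The sums of beta5 were 192, 193 and 176 FPKM at 0.5 mg/L, against 272, 271 and 301 FPKM at 0.1 mg/L. Both beta4 loci were lower, and the beta4 sums of 210, 199 and 203 FPKM at 0.5 mg/L stood against 308, 306 and 296 FPKM at 0.1 mg/L. All 4 loci of beta3 and all 4 loci of beta6 were lower as well.

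The largest fall among the beta loci was in Niben261Chr02g1203030, which encoded beta2. It had 86.6, 82.5 and 80.1 FPKM at 0.5 mg/L and 135, 135 and 123 FPKM at 0.1 mg/L (log2 fold change -0.65, SE 0.07, adjusted p = 0.00066, limma). The beta5 locus Niben261Chr14g0279002 followed, with 69.0, 63.1 and 62.3 FPKM at 0.5 mg/L and 97.99, 99.8 and 105 FPKM at 0.1 mg/L (log2 fold change -0.63, SE 0.07, adjusted p = 0.00072, limma). The strongest locus of all proteasome loci, Niben261Chr03g1259001, encoded beta7 and had 203, 204 and 196 FPKM at 0.5 mg/L against 267, 270 and 264 FPKM at 0.1 mg/L. Its log2 fold change of -0.41 (SE 0.06, adjusted p = 0.002, limma) shrank to -0.06 after quantile normalization and then did not pass (adjusted p = 0.43, limma). The beta1 locus Niben261Chr18g0402006, at 19.5, 18.7 and 13.8 FPKM at 0.5 mg/L and 14.9, 17.95 and 19.3 FPKM at 0.1 mg/L, overlapped between the groups. The beta7 locus Niben261Chr15g1419018, at 5.71, 5.90 and 3.49 FPKM at 0.5 mg/L and 4.74, 3.88 and 5.19 FPKM at 0.1 mg/L, overlapped too.

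**Figure D2:**
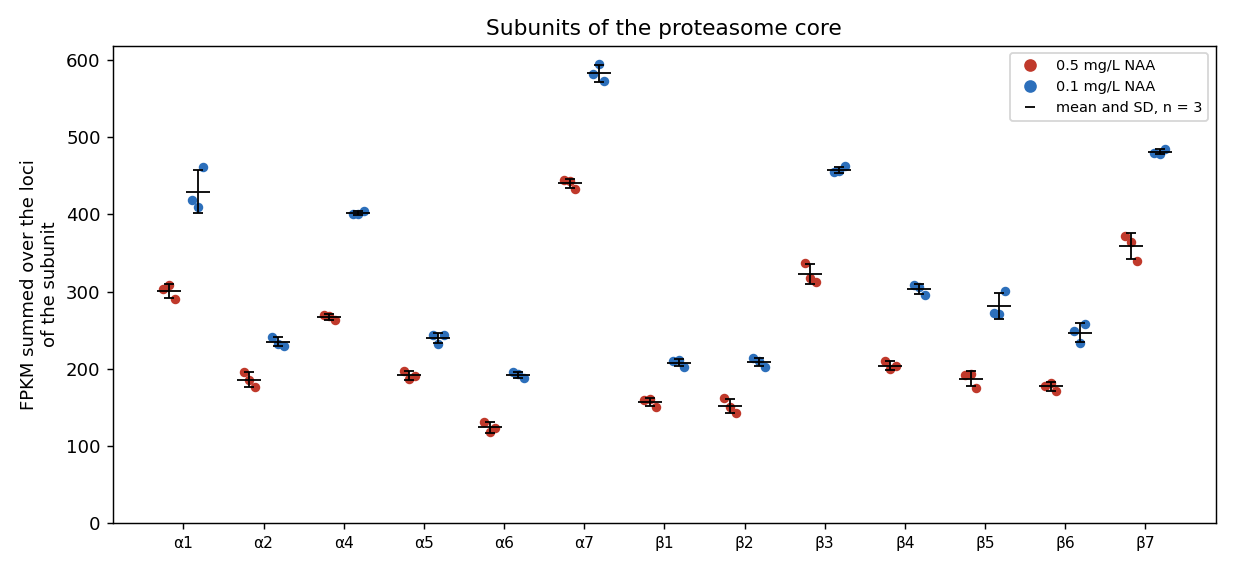
FPKM summed over the loci under the rule of each core subunit, in every library (points) with the mean and SD of 3 libraries, at 0.5 mg/L NAA (left of each pair) and 0.1 mg/L NAA (right). In all 13 subunits the 3 libraries of 0.5 mg/L lie below the 3 of 0.1 mg/L, with ratios of the means between 0.646 and 0.797.

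The regulatory particle changed less and not in one direction. Over all loci 20.2% were lower and 21.7% higher as deposited, and 12.2% and 34.3% with libraries rescaled to the same total. The ATPases stood at 28.6% lower and 10.7% higher as deposited, and the non-ATPases at 26.2% and 16.7%. After rescaling, the share of higher loci was below that of all loci in both classes. Of the 28 ATPase loci tested 8 were lower and 3 higher. Their median log2 fold change was -0.08, which turned to 0.11 with libraries rescaled to the same total (7 higher and 0 lower) and to 0.018 after quantile normalization. Of the 42 non-ATPase loci tested 11 were lower and 7 higher, with a median of -0.09, which turned to 0.094 with libraries rescaled to the same total (11 higher and 4 lower). Relative to all loci under the same scaling, the ATPase median was -0.11 as deposited, -0.08 after rescaling and 0.03 after quantile normalization, and the non-ATPase median was -0.11, -0.09 and -0.04 in that order of scalings.

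By summed FPKM 3 of the 6 ATPases were lower in every 0.5 mg/L library: RPT3 (ratio 0.832), RPT6 (0.870) and RPT2 (0.897). Of all single loci 25.9% lay below and 28.8% above in this way as deposited, and these shares were not computed after rescaling. The sums of RPT1, RPT4 and RPT5 overlapped between the groups, with ratios of 0.978, 0.954 and 1.04. With libraries rescaled to the same total only RPT3 was lower without overlap (ratio 0.951), and 3 of the 6 were higher (RPT1, RPT4 and RPT5). RPT2, whose tail in yeast opens the core's gate, was the most abundant, with 403, 385 and 397 FPKM at 0.5 mg/L and 441, 448 and 434 FPKM at 0.1 mg/L. Its strongest locus, Niben261Chr04g1620016, had 146, 148 and 149 FPKM at 0.5 mg/L and 179, 183 and 170 FPKM at 0.1 mg/L. The log2 fold change of -0.26 (SE 0.06, adjusted p = 0.013, limma) became -0.07 with libraries rescaled to the same total and 0.01 after quantile normalization, and passed under neither. It also did not pass without replicate 1 (-0.26) or without replicate 2 (-0.24) of the 0.1 mg/L treatment.

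The widest spread within an ATPase was that of RPT3, where 4 of 7 tested loci were lower and 2 higher. The lowest fold changes were in Niben261Chr12g0480008, with 18.1, 18.5 and 14.3 FPKM at 0.5 mg/L and 24.6, 21.1 and 31.5 FPKM at 0.1 mg/L (log2 fold change -0.56, SE 0.16, adjusted p = 0.024, limma), and in Niben261Chr07g0724001, with 39.1, 34.4 and 33.4 FPKM at 0.5 mg/L and 48.4, 45.0 and 47.8 FPKM at 0.1 mg/L (-0.40, SE 0.08, adjusted p = 0.0071, limma). The highest were in Niben261Chr16g1117009, with 17.3, 17.9 and 20.2 FPKM at 0.5 mg/L and 13.6, 13.4 and 7.96 FPKM at 0.1 mg/L (0.65, SE 0.19, adjusted p = 0.028, limma), and in Niben261Chr07g0724014, with 4.08, 2.11 and 3.38 FPKM at 0.5 mg/L and 1.92, 1.24 and 1.65 FPKM at 0.1 mg/L (0.67, SE 0.21, adjusted p = 0.036, limma). Groups did not overlap in any of these 4 loci. Of the 4 calls, that of Niben261Chr07g0724001 held without each library in turn but not with libraries rescaled to the same total (-0.21), where that of Niben261Chr12g0480008 was also lost (-0.38). The call of Niben261Chr16g1117009 was lost without replicate 3 of the 0.5 mg/L treatment (0.59), that of Niben261Chr12g0480008 without any of 3 single libraries (-0.59 to -0.42) and that of Niben261Chr07g0724014 without any of 5 (0.51 to 0.75).

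Some loci of the same subunit have names that differ only in the last digits, and 9 such pairs were found. Their numbers are consecutive in some pairs and further apart in others. In 2 of them, neither with consecutive numbers, the loci carried opposite calls: the RPT3 loci Niben261Chr07g0724001 and Niben261Chr07g0724014 above, and a pair of RPN6 loci on chromosome 19. A further pair on chromosome 1 had opposite calls as well: the RPT6 locus Niben261Chr01g0856001 was higher (log2 fold change 0.38, adjusted p = 0.018, limma), and its neighbour Niben261Chr01g0856002, which is RPT6 by its KEGG term but not by the words of the rule, was lower (-0.41, adjusted p = 0.0038, limma). With that neighbour added the RPT6 sum was still lower without overlap (ratio 0.844). RPN6 in yeast clamps the regulatory particle to the core. Niben261Chr19g1039007 had 10.6, 11.4 and 9.65 FPKM at 0.5 mg/L and 16.0, 14.8 and 18.1 FPKM at 0.1 mg/L (log2 fold change -0.58, SE 0.10, adjusted p = 0.0041, limma), the next to largest fall among the non-ATPase loci. Niben261Chr19g1039014 had 3.84, 3.64 and 4.74 FPKM at 0.5 mg/L and 2.03, 2.16 and 1.30 FPKM at 0.1 mg/L (0.85, SE 0.17, adjusted p = 0.0058, limma), their largest rise. Such loci may be copies or, where consecutive, pieces of a split gene model. How reads were assigned to them is not described, so the opposite calls are uncertain. The RPN6 sum would not depend on the split between them if they were of equal length, and lengths are not given. This sum was lower as deposited, with 108, 107 and 106 FPKM at 0.5 mg/L and 131, 121 and 129 FPKM at 0.1 mg/L. It overlapped when rescaled to the same total.

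Among the non-ATPase subunits, 2 of 14 gave higher sums in every 0.5 mg/L library, 8 gave lower sums and 4 overlapped. Of all single loci 28.8% lay above and 25.9% below in this way, shares that were not computed after rescaling. Rescaled to the same total, 5 of the 14 sums were above (RPN1, RPN2, RPN3, RPN5 and RPN10) and 3 below (RPN7, RPN8 and RPN11). Those above as deposited were RPN1 and RPN2, the large scaffold proteins of the base that dock ubiquitin-binding shuttles and other partners. RPN1 summed to 115, 108 and 119 FPKM at 0.5 mg/L and to 87.5, 89.0 and 88.5 FPKM at 0.1 mg/L (ratio 1.29). RPN2 summed to 88.4, 81.1 and 88.0 FPKM at 0.5 mg/L and to 63.4, 64.0 and 64.1 FPKM at 0.1 mg/L (ratio 1.34). All 4 RPN1 loci and 2 of the 4 tested RPN2 loci were higher, with log2 fold changes of 0.27 to 0.43. The RPN1 locus with the largest change, Niben261Chr10g0201025, had 35.9, 33.6 and 38.1 FPKM at 0.5 mg/L and 26.6, 26.6 and 25.9 FPKM at 0.1 mg/L (0.43, SE 0.07, adjusted p = 0.0035, limma). The weak RPN2 locus Niben261Chr14g0814013, at 1.13, 1.00 and 1.71 FPKM at 0.5 mg/L and 0.44, 0.73 and 0.97 FPKM at 0.1 mg/L, did not pass (0.41, adjusted p = 0.12, limma). Without RPN1 and RPN2, a split made after their values were seen, 11 of the 34 other non-ATPase loci were lower and 1 was higher, with a median of -0.15.

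The subunits with the lowest ratios of this class were RPN7 (0.760) and RPN11 (0.762), both of the lid. RPN11 is the enzyme that removes ubiquitin chains from substrates, and 1 locus, Niben261Chr11g0461001, carried 97.2% of its FPKM. That locus had 167, 161 and 163 FPKM at 0.5 mg/L and 211, 217 and 218 FPKM at 0.1 mg/L (log2 fold change -0.39, SE 0.06, adjusted p = 0.0022, limma), and after quantile normalization it was at -0.092 and did not pass. The other lower sums were those of RPN8 (0.835), RPN13 (0.836), RPN6 (0.845), RPN9 (0.906), RPN12 (0.929) and the protein described as subunit 10 (0.837). With loci added that carry the KEGG term of a subunit and whose protein match names no other protein, RPN9 overlapped (0.937) and RPN3, with 2 more loci, was lower without overlap (0.964). With the 3 KEGG loci of RPN13 described as the chloroplast protein TIC 40, RPN13 overlapped too (1.04). RPN10, a ubiquitin receptor like RPN13, overlapped between the groups with a ratio of 0.985, as did RPN5 (0.994), RPN3 (1.05) and subunit 9 (1.00). The largest fall of a single locus in this class was in Niben261Chr12g1350015, a weak copy of subunit 10 with 4.79, 2.87 and 2.91 FPKM at 0.5 mg/L and 6.66, 5.13 and 6.22 FPKM at 0.1 mg/L (-0.65, SE 0.18, adjusted p = 0.025, limma). Leaving out any of 4 single libraries lost this last call, with values of -0.63 to -0.55, as did rescaling to the same total (-0.49). The names subunit 9 and subunit 10 are those of the protein matches. In yeast and mammals proteins of these numbers are chaperones that help build the base. The subunit 10 loci carry no KEGG proteasome term. Both proteins are counted here among the non-ATPase subunits and in the regulatory sums below.

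**Figure D3:**
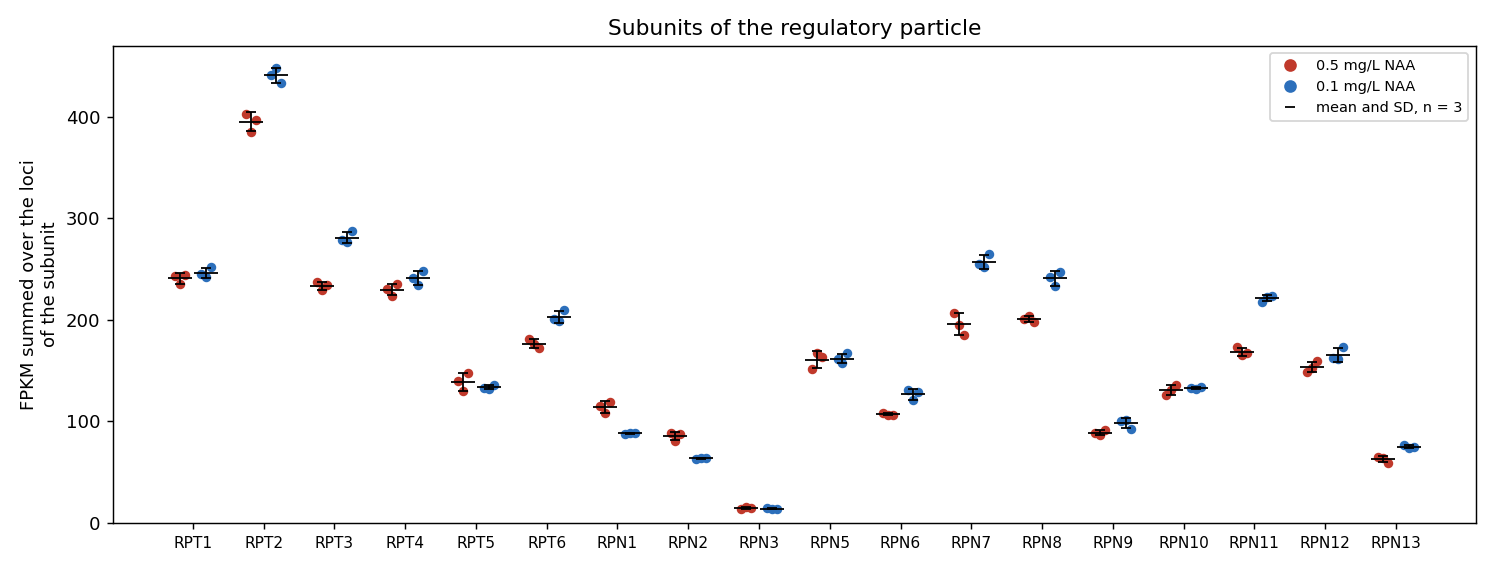
FPKM summed over the loci under the rule of each ATPase (RPT) and non-ATPase (RPN) subunit of the regulatory particle, in every library (points) with the mean and SD of 3 libraries, at 0.5 mg/L NAA (left of each pair) and 0.1 mg/L NAA (right). RPN1 and RPN2 are higher at 0.5 mg/L (ratios 1.29 and 1.34) and RPT3, RPN7, RPN8 and RPN11 lower, as they also were with libraries rescaled to the same total, which moved other subunits to overlap or to the higher side.

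The balance between the parts of the complex was computed within each library, where the scaling of the library cancels out. A shift that goes with protein size, read in other proteins below, does not cancel out, and its part in these ratios was not tested. Only loci under the rule were summed, so loci with a KEGG term only are left out. Among these is the strong DSS1 locus of the lid, which was lower at 0.5 mg/L (below). The ratios were not computed with such loci. The sum of the core subunits over that of the regulatory subunits was 1.00, 1.00 and 0.952 at 0.5 mg/L, against 1.24, 1.25 and 1.23 at 0.1 mg/L. The core sum over the ATPase sum was 2.19, 2.22 and 2.08 at 0.5 mg/L, against 2.77, 2.76 and 2.74 at 0.1 mg/L. Both ratios were lower in each of the 3 libraries at 0.5 mg/L, and the means differed by far more than the SD of either group (0.029 at 0.5 mg/L and 0.0081 at 0.1 mg/L for the first ratio, 0.078 and 0.012 for the second). With 3 libraries against 3 an exact permutation test cannot give a two-sided p below 0.1, and none is given. The alpha sum over the beta sum moved far less, with 0.957, 0.962 and 0.988 at 0.5 mg/L and 0.952, 0.952 and 0.951 at 0.1 mg/L. All proteasome loci together took 0.639%, 0.622% and 0.635% of the summed FPKM at 0.5 mg/L and 0.685%, 0.675% and 0.699% at 0.1 mg/L.

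The activator and the associated protein ECM29 moved against the core. PA200, called BLM10 in yeast, is a single very large protein that caps the core in place of the regulatory particle and acts without ATP. Its locus Niben261Chr06g1045002 on chromosome 6 had 11.2, 9.91 and 15.3 FPKM at 0.5 mg/L and 3.61, 4.06 and 4.04 FPKM at 0.1 mg/L, a log2 fold change of 1.40 (SE 0.16, adjusted p = 0.00071, limma). The other locus, Niben261Chr01g0510012 on chromosome 1, had 10.1, 10.7 and 9.46 FPKM at 0.5 mg/L and 6.17, 5.97 and 6.32 FPKM at 0.1 mg/L (0.63, SE 0.09, adjusted p = 0.0018, limma). Both were higher in all 3 libraries at 0.5 mg/L, which was so for 28.8% of all loci, and the calls held under every alternative run. At 0.1 mg/L the chromosome 1 copy was the stronger and at 0.5 mg/L the chromosome 6 copy was, except in replicate 2. Per 1000 FPKM of core subunits, PA200 stood at 6.75, 6.71 and 8.32 at 0.5 mg/L and at 2.29, 2.37 and 2.40 at 0.1 mg/L.

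ECM29, a large protein that in yeast holds the core and the regulatory particle together, was higher in both tested loci. Niben261Chr02g0049004 had 14.4, 13.9 and 15.3 FPKM at 0.5 mg/L and 8.4, 8.0 and 8.54 FPKM at 0.1 mg/L (log2 fold change 0.74, SE 0.08, adjusted p = 0.00076, limma). Niben261Chr03g1425026 had 4.32, 4.38 and 4.43 FPKM at 0.5 mg/L and 1.8, 1.82 and 2.03 FPKM at 0.1 mg/L (0.90, SE 0.11, adjusted p = 0.00096, limma). The groups were far apart in both.

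The assembly chaperones and the inhibitor were lower or did not pass. PAC2 and PAC4 help the alpha ring to form. The PAC2 locus Niben261Chr09g1310003 had 33.5, 30.9 and 32.2 FPKM at 0.5 mg/L and 39.6, 43.2 and 44.6 FPKM at 0.1 mg/L (-0.39, SE 0.07, adjusted p = 0.0057, limma), and its weaker copy Niben261Chr10g0654012, at 4.19, 5.03 and 3.68 FPKM at 0.5 mg/L and 4.61, 3.14 and 3.11 FPKM at 0.1 mg/L, overlapped (0.21, adjusted p = 0.35, limma). The PAC4 locus Niben261Chr13g1472009 had 24.1, 24.5 and 24.1 FPKM at 0.5 mg/L and 28.0, 27.9 and 31.1 FPKM at 0.1 mg/L (-0.25, SE 0.07, adjusted p = 0.029, limma), a call that was lost without any of 5 single libraries (-0.27 to -0.20). Its copy Niben261Chr08g1242005 had 16.4, 16.9 and 17.2 FPKM at 0.5 mg/L and 16.7, 18.7 and 19.3 FPKM at 0.1 mg/L and did not pass (-0.11, adjusted p = 0.34, limma). Of the 8 tested loci of the mixed class of assembly, inhibitor and associated proteins, 3 were lower and 2 higher as deposited. Over all loci 20.2% were lower and 21.7% higher. With libraries rescaled to the same total, 0 of the 8 were lower and 2 higher, against 12.2% and 34.3% of all loci. The class median then was 0.028, against -0.16 as deposited.

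PI31 was first described in mammals as an inhibitor of the core, and its Arabidopsis counterpart, PTRE1, takes part in auxin signalling. Niben261Chr16g0887001 had 22.2, 22.6 and 18.2 FPKM at 0.5 mg/L and 35.9, 37.7 and 23.4 FPKM at 0.1 mg/L (-0.58, SE 0.18, adjusted p = 0.036, limma). Replicate 3 was the lowest library of each treatment, and the call was lost without any of 4 single libraries (-0.62 to -0.46). The other PI31 locus, Niben261Chr12g0330003, had 24.0, 20.5 and 23.0 FPKM at 0.5 mg/L and 28.6, 28.7 and 21.7 FPKM at 0.1 mg/L and did not pass (-0.21, adjusted p = 0.21, limma), but passed without replicate 3 of the 0.1 mg/L treatment (-0.33, adjusted p = 0.041, limma).

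**Figure D4:**
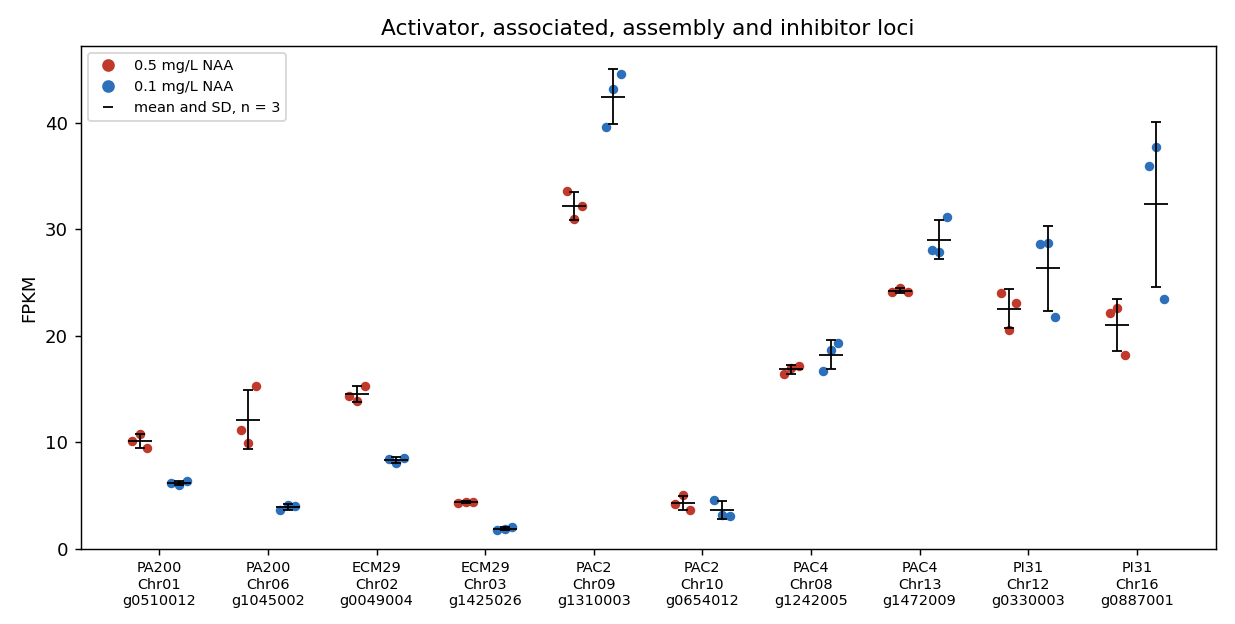
FPKM of the 10 tested loci of the activator PA200, the associated protein ECM29, the assembly chaperones PAC2 and PAC4 and the inhibitor PI31, in every library (points) with the mean and SD of 3 libraries, at 0.5 mg/L NAA (left of each pair) and 0.1 mg/L NAA (right). The PA200 and ECM29 loci are higher at 0.5 mg/L without overlap, and the stronger PAC2 locus is lower.

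The subunits that rose encode the largest proteins of the complex and those that fell most encode small ones, so the same contrast was read in other proteins of known size, in lists made after these values were seen. Over all loci 21.7% were higher and 20.2% lower as deposited, and 34.3% and 12.2% with libraries rescaled to the same total. Very large proteins, such as clathrin heavy chains, callose synthases, exportins and the kinase TOR, had 51 tested loci. Of these 47 were higher and 0 lower, with a median log2 fold change of 0.63, and 49 and 0 after rescaling. Of 397 tested loci of cytosolic ribosomal proteins 347 were lower and 4 higher, with a median of -0.67, and 315 and 4 after rescaling. Other small proteins, such as prefoldins, profilins, thioredoxins of type H and small mitochondrial import subunits, had 72 tested loci. Of these 48 were lower and 1 higher, with a median of -0.41, and 33 and 2 after rescaling. The core medians lay close to that of these small proteins, the median of 0.40 over the RPN1 and RPN2 loci lay below that of the large ones, and the PA200 locus on chromosome 6 lay above it. The files give no transcript lengths, and 9.86% of the loci tested had a protein match in the RefSeq gene table of N. tabacum, so a check against length was void and its part in the proteasome results was not tested.

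**Figure D5:**
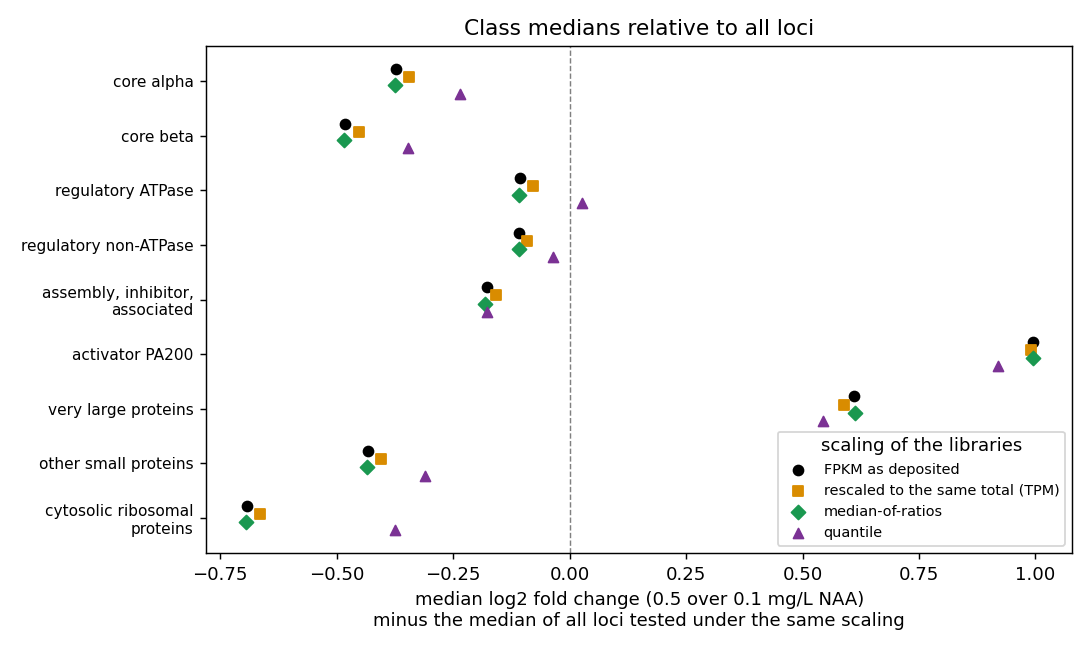
Median log2 fold change (0.5 over 0.1 mg/L NAA) of each proteasome class and of 3 lists of other proteins, minus the median of all loci tested under the same scaling, for the FPKM as deposited and 3 other scalings of the libraries. The core medians lie between -0.49 and -0.23 under all 4, the ATPases change side after quantile normalization (0.03), and PA200 lies with the very large proteins on the higher side.

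Further loci carry a proteasome term of the KEGG database but not the words of the rule. There were 21 of them, of which 7 were lower, 3 were higher and 11 did not pass, against 20.2% of all loci lower and 21.7% higher. Those named here were picked after their values were seen. UMP1 is a chaperone that is enclosed in the maturing core and is its first substrate. It was matched by 4 loci, which the protein matches describe as cyclin-B1-2-like and which therefore also stand in the list of dividing cells. All 4 were lower, with log2 fold changes of -1.07 to -0.88, and they summed to 386, 324 and 296 FPKM at 0.5 mg/L and to 664, 661 and 635 FPKM at 0.1 mg/L. The locus for DSS1, the smallest subunit of the lid, had 430, 403 and 358 FPKM at 0.5 mg/L and 680, 704 and 638 FPKM at 0.1 mg/L (-0.77, SE 0.09, adjusted p = 0.00087, limma), more than any locus under the rule. The other 2 lower loci were Niben261Chr01g0856002 of RPT6, given above, and Niben261Chr01g1557003 of RPT5 (-0.24, adjusted p = 0.026, limma). The 3 higher loci carry the KEGG terms of alpha6, RPT5 and RPN13 but protein matches of other proteins. Niben261Chr13g0035004, under alpha6, is described as SFH8-like (0.32, adjusted p = 0.0066, limma). Niben261Chr03g0237003, under RPT5, is described as the phosphatase PTEN2A (0.51, adjusted p = 0.003, limma), and Niben261Chr10g0714004, under RPN13, as TIC 40 (0.38, adjusted p = 0.042, limma). The 2 further RPN3 loci did not pass, at -0.06 and -0.09.

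The steps before the proteasome were read in lists made by words of the protein matches. Over all loci 21.7% were higher and 20.2% lower as deposited, and 34.3% were higher and 12.2% lower with libraries rescaled to the same total. Of 6 tested loci of ubiquitin-activating and related enzymes (E1), which start the chain, 3 were higher and 1 lower. The 3 were ubiquitin-activating enzymes, with Niben261Chr15g1466012 at 42.9, 43.8 and 44.9 FPKM at 0.5 mg/L and 29.6, 31.2 and 31.7 FPKM at 0.1 mg/L. Of 66 ubiquitin-conjugating enzymes (E2) 34 were lower and 5 higher, with a median of -0.27. These became 22 lower and 8 higher (median -0.11) with libraries rescaled to the same total and 22 lower and 7 higher (median -0.096) after quantile normalization, and 3 were higher without replicate 2 of the 0.5 mg/L treatment or without any single 0.1 mg/L library. The lower ones included the E2-17 kDa type, such as Niben261Chr16g0545001 (log2 fold change -1.02), and the higher ones the large E2 23 and E2 24, such as Niben261Chr09g1247005 (0.68). Only 2 loci were matched by the words for ubiquitin precursors, and both were lower. Ubiquitin genes under other words were not read. The weaker had a mean of 7.23 FPKM. The stronger, the ubiquitin-40S S27a fusion Niben261Chr10g0186005, had 404, 425 and 322 FPKM at 0.5 mg/L and 798, 778 and 773 FPKM at 0.1 mg/L. It is fused to a ribosomal protein, and 347 of 397 tested loci of cytosolic ribosomal proteins were lower.

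SCF ligases hold the auxin receptors. Of 35 tested loci of the SCF core 12 were lower and 8 higher, with a median of -0.13 that turned to 0.05 with libraries rescaled to the same total (13 higher and 10 lower). Those with the lowest fold changes encoded the small adaptor SKP1 and RING-box proteins, such as the SKP1 locus Niben261Chr13g0018010 at -1.01, and those with the highest encoded cullins and the exchange factor CAND1, such as the CAND1 locus Niben261Chr10g0542011 at 0.60. Of 10 loci of the TIR1 and AFB auxin receptors 4 were higher and 0 lower, but 2 were higher without any single 0.1 mg/L library and 7 with libraries rescaled to the same total. They were led by the TIR1-like locus Niben261Chr19g0579004 with 17.9, 20.7 and 19.3 FPKM at 0.5 mg/L and 10.6, 13.1 and 12.2 FPKM at 0.1 mg/L. Of 20 loci of the COP9 signalosome, a relative of the lid that recycles cullins, 5 were lower and 0 higher, and with libraries rescaled to the same total 2 were lower and 5 higher. Of 11 loci of the RUB/NEDD8 pathway 3 were higher and 2 lower, and 6 and 2 after that rescaling. This list is not separate from the SCF core, since the CAND1 locus at 0.60 counts in both. As deposited, the share of COP9 loci that were lower and both RUB/NEDD8 shares lie near those of all loci (20.2% lower and 21.7% higher). Without replicate 1 of the 0.1 mg/L treatment 3 COP9 loci were lower, and 5 SCF loci were higher without its replicate 2.

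Among the partners downstream of ubiquitin chains, 23 of 60 deubiquitinating enzymes were higher and 6 lower, and 34 and 2 with libraries rescaled to the same total. All loci stood at 21.7% higher and 20.2% lower, and at 34.3% and 12.2% after that rescaling. Of 26 loci of shuttles and the segregase CDC48, which pulls substrates out of complexes, 10 were higher and 3 lower, and 17 and 0 after rescaling. Without replicate 2 of the 0.1 mg/L treatment 2 deubiquitinating enzymes were lower, and 1 locus of the shuttles and CDC48 was lower without its replicate 1 or 3. RAD23 shuttles stood on both sides, with Niben261Chr04g1485020 at 0.82 and Niben261Chr18g1462014 at -0.42. Of 12 tested loci described as NAC78-like, a type of NAC factor that in Arabidopsis activates proteasome genes, 1 was higher and 0 lower, and 6 and 0 after rescaling. The other routes of protein breakdown were mixed: 11 of 29 autophagy loci were higher and 5 lower, and 16 and 4 after rescaling, with 7 higher without replicate 2 of the 0.1 mg/L treatment. Of 4 loci of cytosolic peptidases 1 was higher as deposited and 3 after rescaling, after quantile normalization or without replicate 2 of the 0.5 mg/L treatment. The 1 was a tripeptidyl-peptidase 2 locus (Niben261Chr08g0476021) with 38.7, 32.1 and 38.4 FPKM at 0.5 mg/L and 24.1, 25.2 and 23.6 FPKM at 0.1 mg/L.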

How the data were processed

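The analysis used 3 RNA-seq libraries at 0.5 mg/L NAA and 3 at 0.1 mg/L NAA, from explants of 2 weeks, with treatment and replicate taken from the labels. The authors deposited 1 table of FPKM values with columns of protein matches, gene ontology and KEGG terms. Per the labels, libraries were made with a SMARTer mRNA-Seq kit. The aligner and counter of these 2-week libraries are not given in the sources used here, and no scaling between libraries beyond FPKM is stated, so a difference in composition moves all values of a library. The depth in reads is unknown, which leaves the precision of weak loci unknown.

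Loci with a mean of at least 0.5 FPKM were tested with limma 3.58.1 in R 4.3.3 (linear model, mean-variance trend) on log2(FPKM + 1), with Benjamini-Hochberg adjustment over all loci tested. Fold changes on this scale understate the change of weak loci. The procedure was tested on simulated data. Calls had an adjusted p under 0.05, and the study's |log2FC| threshold of 1 was a second rule. Subunits were assigned from the protein descriptions.

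Loci were named where they passed both thresholds, had the 2 highest or 2 lowest fold changes or the highest mean of their class, belonged to the activator or assembly classes, or stood next to the minimum. Other loci named were chosen after their values were seen. The members and lists were chosen with earlier results of these data known.

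The alternatives were a pseudocount of 0.1, no minimum, a minimum mean of 1, no trend, a block for the replicate number, TPM (each library rescaled to the same total), quantile normalization, median-of-ratios scaling, each library left out, the particle classes alone and subunits summed. TPM for the subunit sums, and these sums with KEGG loci outside the rule, were added after the data were seen. Plots used Python 3.11.15 and matplotlib 3.10.9.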

Additional observations from a re-analysis of the deposited data

How the results depend on the processing

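The calls and class medians kept their direction under every alternative except as follows. With libraries rescaled to the same total (TPM), proteasome loci counted 22 higher and 27 lower, with 2 past a |log2FC| of 1 and a median of -0.021. The medians then were -0.16 (alpha, 9 lower), -0.27 (beta), 0.11 (ATPase, 7 higher, 0 lower), 0.094 (non-ATPase, 11 higher, 4 lower), 1.17 (PA200) and 0.028 (assembly, inhibitor and associated loci, 0 lower, 1 past a log2FC of 1). The SCF and COP9 medians turned to 0.054 and 0.084. Subunit sums without overlap then counted 3 ATPases above and 1 below, and 5 non-ATPases above and 3 below. With the KEGG loci outside the rule, 8 non-ATPase sums were below where their protein match names no other protein and 7 with all of them, and the counts of the other classes did not move. Quantile normalization gave medians of -0.14 (all proteasome loci), -0.24 (alpha, 11 lower), -0.36 (beta), 0.018 (ATPase, 3 lower), 0.91 (PA200) and 0.012 (SCF), with 6 non-ATPase loci lower, and put the RPT2 locus Niben261Chr04g1620016 at 0.015 (adjusted p = 0.87, limma). The cause of these differences was not tested. A pseudocount of 0.1 gave 3 proteasome loci past a |log2FC| of 1, among them 1 non-ATPase and 1 assembly-class locus, and medians of -0.22 (all) and 1.15 (PA200). Median-of-ratios scaling gave -0.22, and summing loci by subunit -0.26.

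Leaving out each library in turn gave 11 to 14 proteasome loci higher and 38 to 54 lower, with medians of -0.22 to -0.18. By class the ranges were 10 to 17 lower (alpha), 1 to 3 higher and 3 to 8 lower with medians of -0.099 to -0.038 (ATPase), 7 to 10 lower (non-ATPase) and 1 to 3 lower (assembly, inhibitor and associated). These fits hold fewer libraries. Replicate numbers were shared between the treatments, and each library deviated most like its own number, but the correlations were 0.022, 0.0098 and 0.0096, so nothing shows that the numbers pair the libraries. With the replicate number as a block 13 proteasome loci were higher and 50 lower, and 5 ATPase loci were lower. The depth in reads is unknown, and differences of loci near the minimum were not detectable.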
